A study of Mus musculus with 9 samples.

Results

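Of the 547 endogenous genes on a mouse immunology probe panel, 91 stayed at background in epithelium isolated from the ileum of male NOD mice, the non-obese diabetic strain used as a model of type 1 diabetes. A gene was placed in this set when its count exceeded the background limit in at most 2 of the 9 libraries. The limit of a library was the mean plus 2 SD of its 8 negative-control probes, which have no target in the sample. The genes were thus selected on their own counts in these 9 libraries, so the levels below are a description and were not tested.

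All mice were at postnatal day 23, and all 9 libraries carried the same batch label. There were 3 libraries of untreated control mice, 3 of mice given the treatment the labels call 1PAT antibiotics, and 3 of mice given cecal material transfer. The series title presents the transfer as a rescue from the effects of antibiotics, but whether those mice first received them is not in the labels, which also leave 1PAT unexpanded. Nothing in the labels ties each library to its own animal or to a pool. The p-values therefore reflect spread among libraries that may be technical.

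On the nCounter platform a capture probe and a colour-coded reporter probe bind each transcript, and the bound molecules are counted by imaging without amplification. Immune genes differ widely in the cells that use them. Intestinal epithelium makes antibody transporters and alarm cytokines, and lymphocytes lie between its cells. Neutrophil granule proteins, plasma complement, lymph-node chemokines and the cytokines of stimulated T helper cells are known mainly from bone marrow, liver, stroma and activated immune cells. In RNA from a mixed cell preparation, fewer cells of a type and less RNA per cell cannot be told apart.

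Summed over endogenous and housekeeping genes, the libraries held between 323129 counts (antibiotic replicate 2) and 747434 counts (transfer replicate 2). The epithelial markers Pigr, which carries antibody across the epithelium, and Ccl25, the small-intestinal chemokine, had 11211 to 48139 and 3618 to 17573 counts. Of the 6 epithelial markers only Defb1, a defensin, was near background, above the limit in 3 libraries. T cell markers (Cd3d, Cd3e, Cd8a, Thy1) and the B cell markers Ms4a1 and Cd79b were above it in all 9 libraries, so the preparations were not free of lymphocyte RNA. Control replicate 3 had the lowest summed T cell marker count, 2443, while the other 8 libraries had 7305 to 21703.

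Detection was uneven at both ends of the panel. Of the 547 genes, 292 exceeded the limit in all 9 libraries, while 46 did so in 0 libraries, 22 in 1 and 23 in 2. Just outside the set lay 26 genes above the limit in 3 libraries, with counts of up to 45. No count of the 91 genes was above 43, and 44 of the 91 never exceeded 10 counts.

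**Figure D1:**
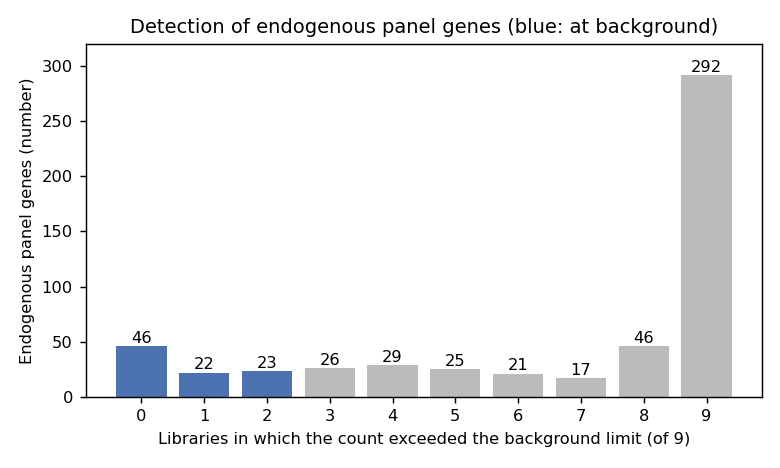
Number of endogenous panel genes (vertical axis) by the number of libraries, of 9, in which the count exceeded the background limit (horizontal axis). The blue bars are the 46, 22 and 23 genes at background, and the right-hand bar shows 292 genes above the limit in every library.

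The limit itself differed between libraries, because it rests on 8 probes. It was 7.74, 17.7 and 8.0 counts in control replicates 1 to 3, 12.0, 12.6 and 12.1 in the antibiotic libraries, and 13.8, 10.4 and 12.0 in the transfer libraries. Relative to each library's total, these limits stood for a CPM of 13.9 to 39.1 (CPM is the count scaled to the library total). A transcript under that share was not detectable at this depth, which does not show that it was absent. For single genes below, CPM rests instead on the adjusted library sizes of the tests, and is not on the same scale as these limits.

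The spike-in RNAs give a second view of low counts, though not a ranking of how sensitive the libraries were. POS_F, one of the 2 spike-in probes with the fewest counts, measured 6, 8 and 32 counts in the control libraries, 29, 48 and 33 in the antibiotic libraries, and 11, 19 and 15 in the transfer libraries. It therefore lay under the limit in control replicates 1 and 2 and in transfer replicate 1. In transfer replicate 1 the POS_E spike-in, at 9 counts, was under the limit as well.

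The genes at background were low by the rule, whose limit the negative probes set, so nearness to these probes is not a result. The median count of the 91 genes was 3 to 6 per library, where the negative-probe mean was 3.25 to 8.38. Within a library the 2 could differ. In control replicate 2 the genes had a median of 4 and the negative probes 9.5, and in control replicate 3 these were 5 and 2. The summed counts of the 91 genes made up 0.0711% to 0.114% of the library totals. The lowest value on the panel, 1 count, was held by 10 to 28 of the 91 genes in each library. As no lower value occurred, 1 may be a floor of the deposited counts and may stand for none.

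Counts above the limit were not spread evenly. The 91 genes gave 68 of them, in 45 genes. Transfer replicate 2 held 22, control replicate 3 held 16, control replicate 1 held 14 and antibiotic replicate 3 held 12. Antibiotic replicate 1 and transfer replicate 3 had 1 each, transfer replicate 1 had 2, and control replicate 2 and antibiotic replicate 2 had 0.

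These 4 leading libraries were not alike in their limits. With a common limit of 12.4 counts, taken from all 72 negative-probe counts after the data were seen, control replicate 1 fell from 14 genes to 1 and control replicate 3 from 16 to 7. Transfer replicate 2 kept 19 and antibiotic replicate 3 kept 12, while control replicate 2 went from 0 to 9. Negative probes measured 4 to 9 counts in transfer replicate 2 and 3 to 11 in antibiotic replicate 3, a range within that of the other libraries. Both libraries were among the 3 with the highest total counts, and the part of depth in these counts was not tested.

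**Figure D2:**
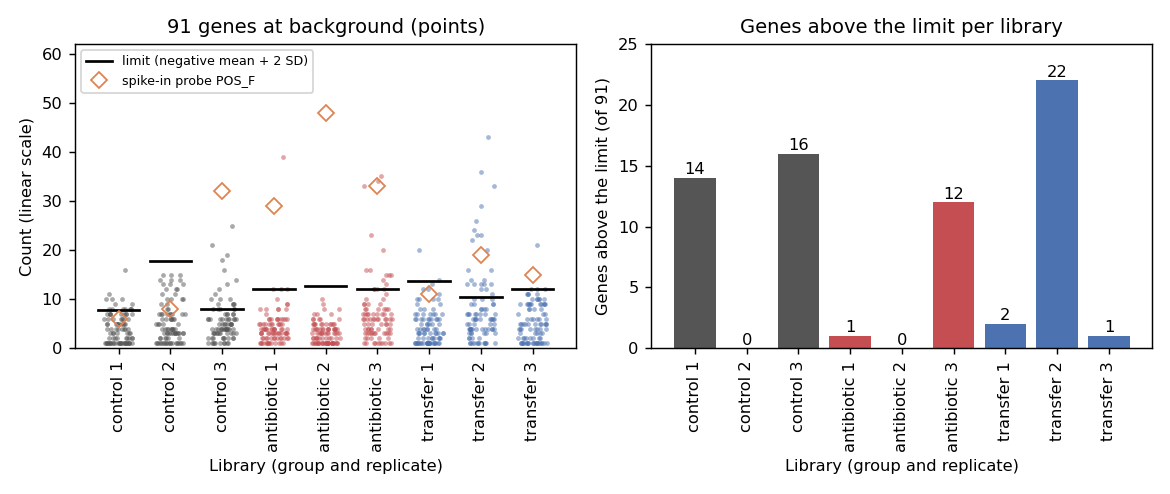
Left, counts of the 91 genes (points, linear vertical axis) in each library (horizontal axis), with the library's background limit (black line) and the spike-in probe POS_F (diamond). Right, the number of the 91 genes above the limit, highest at 22 in transfer replicate 2 and 0 in control replicate 2 and antibiotic replicate 2.

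Of the 91 genes, 29 belong to families with roles of their own and are named only. They are the natural killer receptor genes Klra1, Klra4, Klra7, Klra21, Klrc2, Klrc3 and Cd244; the type 3 immunity genes Il17a, Il17b, Il17re, Il23a and Ahr; the chemokine genes Ccl8, Ccl12, Cxcl3, Ccr2 and Xcr1; Il1a, Il1rn, Il2, Il11ra1 and Tgfb2; H2-Ea-ps, H2-Ob and Psmb11; and Ifi204, Lcp2, Muc1 and Tbx21. The account that follows covers the other 62 genes. Of these, 28 were above the limit in 0 libraries, 14 in 1 and 20 in 2.

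**Figure D3:**
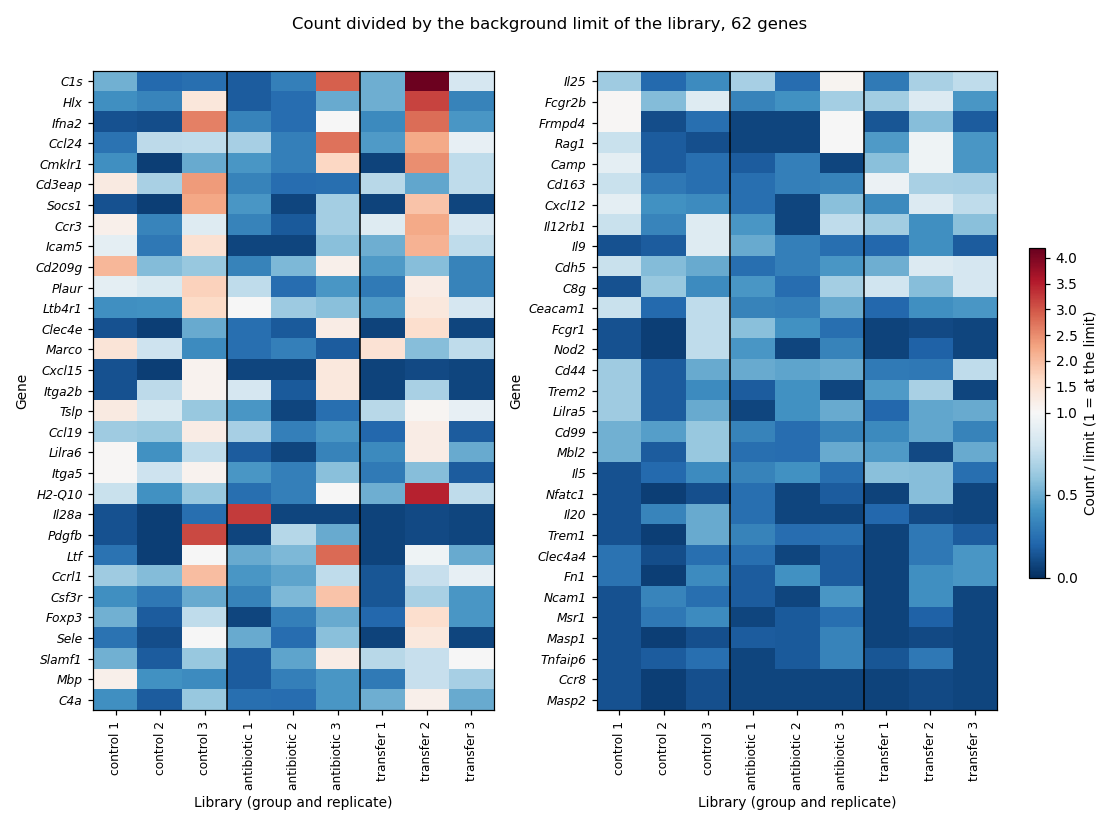
Count divided by the background limit of its library (colour, 1 at the limit, red above and blue under it) for 62 genes (rows) in 9 libraries (columns, lines between groups). Red cells gather in transfer replicate 2, antibiotic replicate 3 and control replicates 1 and 3, and C1s in transfer replicate 2 is the highest at 4.13 times the limit.

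Among the cytokine ligands, 4 of 8 panel genes for type 2 cytokines and their inducers were at background. Il5, the growth factor of eosinophils, had 1, 4 and 3 counts in control, 4, 5 and 3 in antibiotic and 8, 6 and 3 in transfer libraries. Il9, which acts on mast cells and T cells, had 1, 3 and 7, then 6, 4 and 3, then 3, 4 and 2 counts in the same order. Neither exceeded the limit in any library, and the groups overlapped for both.

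Among the epithelial inducers of this response, Il25 and Tslp were at background. Il33, an alarmin placed in another family, exceeded the limit in all 9 libraries. Il25, made by tuft cells, reached 13 counts in antibiotic replicate 3 and was under the limit in the other 8 libraries. Tslp, an epithelial cytokine that acts on dendritic cells and innate lymphoid cells, had 10, 15 and 5 counts in control, 5, 1 and 3 in antibiotic and 10, 11 and 11 in transfer libraries. Its 3 transfer libraries all lay above its 3 antibiotic libraries, yet only control replicate 1 and transfer replicate 2 exceeded their limits. The other 4 genes of this list were detected more often, with Il3 above the limit in 5 libraries, Il4 and Il13 in 7 each and Csf2 in 8.

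The sequences before the start sites of 4 genes are shown because these genes never left background. Ccr8 and Masp2 were the 2 endogenous panel genes with 1 count in all 9 libraries, and Il5 and Il9 are the type 2 cytokines that were never above the limit. Each run is a RefSeq promoter of build GRCm38.p6, from 250 bases before to 50 after the most upstream start listed, read 5′ to 3′ on the gene's strand, with CpG dinucleotides in capitals.
Ccr8, chr9:120091883-120092182, plus strand: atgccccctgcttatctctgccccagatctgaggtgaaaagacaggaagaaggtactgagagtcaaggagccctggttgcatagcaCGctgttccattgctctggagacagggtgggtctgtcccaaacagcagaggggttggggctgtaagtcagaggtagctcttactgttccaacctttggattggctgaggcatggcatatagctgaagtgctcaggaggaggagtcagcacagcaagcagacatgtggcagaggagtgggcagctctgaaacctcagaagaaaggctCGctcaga
Masp2, chr4:148602294-148602593, plus strand: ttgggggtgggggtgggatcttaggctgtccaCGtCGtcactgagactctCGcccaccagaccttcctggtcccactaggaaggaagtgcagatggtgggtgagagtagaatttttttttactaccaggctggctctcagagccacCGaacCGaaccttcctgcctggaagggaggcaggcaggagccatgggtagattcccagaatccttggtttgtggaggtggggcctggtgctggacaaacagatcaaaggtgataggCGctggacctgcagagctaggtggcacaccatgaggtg
Il5, chr11:53720544-53720843, plus strand: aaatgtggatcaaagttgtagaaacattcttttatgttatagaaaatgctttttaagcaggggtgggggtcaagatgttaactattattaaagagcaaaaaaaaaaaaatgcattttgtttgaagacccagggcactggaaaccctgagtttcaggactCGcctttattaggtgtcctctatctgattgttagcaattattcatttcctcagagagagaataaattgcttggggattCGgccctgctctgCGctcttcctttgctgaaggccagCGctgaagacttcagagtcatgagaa
Il9, chr13:56482208-56482507, minus strand: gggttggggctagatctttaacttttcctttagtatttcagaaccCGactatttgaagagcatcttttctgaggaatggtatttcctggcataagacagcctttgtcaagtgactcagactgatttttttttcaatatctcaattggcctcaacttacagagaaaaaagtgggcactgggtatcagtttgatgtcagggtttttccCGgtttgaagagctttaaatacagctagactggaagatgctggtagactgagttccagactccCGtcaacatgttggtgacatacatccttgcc

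The number of CpG dinucleotides was below the lower quartile of RefSeq promoters for Ccr8 alone. Ccr8 had 2, Il9 had 3, Il5 had 4 and Masp2 had 6 in 300 bases, where the median over 27025 RefSeq genes was 7 (quartiles 3 and 20). Over the 91 genes the number ran from 0 to 23 where an entry existed. Only 70 of them, 76.9%, had an entry, so a check of the whole set is void under the 80% required of such a check.

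The interferon ligands gave isolated high counts. Il28a, an interferon lambda gene that RefSeq names Ifnl2, had 39 counts in antibiotic replicate 1 and 1 or 2 counts in every other library. Ifna2, an interferon alpha gene, had 1, 2 and 21 counts in control, 4, 3 and 12 in antibiotic and 5, 29 and 5 in transfer libraries, with control replicate 3 and transfer replicate 2 above the limit. Its relative Ifna1 lay just outside the set and was above the limit in 3 libraries, with 33 counts in transfer replicate 2 and 26 in antibiotic replicate 3. Both genes have near-identical copies in the genome, and how the probes divide them is not given in the sources used here.

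Other secreted ligands were low throughout or high in 1 library. Il20, an IL-10 relative known from skin, had 1 to 6 counts, while Il19 of the same subfamily was above the limit in 3 libraries. Pdgfb, a growth factor for stromal cells, had 1, 1 and 25 counts in control, 1, 9 and 6 in antibiotic and 1, 1 and 1 in transfer libraries, with control replicate 3 alone above the limit.

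Of 8 chemokines known for drawing eosinophils, lymph-node cells or platelet-guided leukocytes, 4 were at background. Ccl24, which attracts eosinophils, had 2, 13 and 6 counts in control, 8, 4 and 33 in antibiotic and 6, 23 and 11 in transfer libraries. Ccl19, which guides cells into lymph nodes, had 5, 11 and 10, then 8, 4 and 5, then 3, 13 and 2 counts. For both genes the groups overlapped in counts. Ccl24 was above the limit in antibiotic replicate 3 and transfer replicate 2, and Ccl19 in control replicate 3 and transfer replicate 2.

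Cxcl15, a lung epithelial chemokine in the mouse, had 1 count in 7 libraries, 9 in control replicate 3 and 16 in antibiotic replicate 3. Cxcl12, the stromal ligand of CXCR4, had 1 to 9 counts and never exceeded the limit. Among the remaining chemokines of the list, Ccl11 and Ccl26 were above it in 3 libraries, Ppbp in 4 and Ccl22 in 8.

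Of 10 chemokine receptors of myeloid and type 2 cells, 3 were at background, 2 of them known from type 2 cells. The others of the list were above the limit in 3 (Cxcr2) to 9 libraries (Ccrl2), with Ccr4 and Gpr44 in 4 each. Ccr8, found on type 2 and regulatory T cells, had 1 count in each of the 9 libraries. Ccr3, the eotaxin receptor of eosinophils, had 9, 6 and 7 counts in control, 4, 2 and 8 in antibiotic and 12, 23 and 10 in transfer libraries. Its transfer libraries lay above its antibiotic libraries in counts and in CPM. They lay above its control libraries in counts alone, since in CPM control replicate 1 (19.5) was above transfer replicate 3 (14.9) for Ccr3. Only control replicate 1 and transfer replicate 2 exceeded their limits. Ccrl1, a scavenging receptor that RefSeq names Ackr4, had 16 counts in control replicate 3 and 2 to 11 in the rest.

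The chemerin receptor Cmklr1 and the leukotriene B4 receptor Ltb4r1 were also at background. Cmklr1 had 3, 1 and 4 counts in control, 5, 4 and 20 in antibiotic and 1, 26 and 9 in transfer libraries. Ltb4r1 had 3, 7 and 13, then 12, 8 and 7, then 6, 14 and 10 counts. The first was above the limit in antibiotic replicate 3 and transfer replicate 2, the second in control replicate 3 and transfer replicate 2.

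Of 12 receptors for type 2 and hematopoietic cytokines, 2 were at background. Csf3r, the receptor for the neutrophil growth factor G-CSF, had 23 counts in antibiotic replicate 3 and 2 to 7 in the other libraries. Il12rb1, the chain shared by the IL-12 and IL-23 receptors, had 1 to 9 counts and never exceeded the limit. By contrast Il4ra and Il13ra1, which form the receptor for IL-4 and IL-13, exceeded it in all 9 libraries, at 134 to 671 and 256 to 2067 counts.

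Complement supplied 6 of the genes at background from a list of 15 of the classical and lectin pathways and the membrane attack complex. All 3 lectin-pathway genes on the list were among them. Masp2, a protease of that pathway, had 1 count in all 9 libraries, Masp1 had 1 in each control and transfer library and 2, 2 and 4 in the antibiotic libraries, and Mbl2, a mannose-binding lectin made by liver, had 1 to 6. None of the 3 exceeded the limit in any library.

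C1s had the highest count of the set. This protease of the classical pathway had 4, 4 and 2 counts in control, 2, 4 and 35 in antibiotic and 7, 43 and 10 in transfer libraries, a top value 4.13 times the limit. Its transfer libraries lay above its control libraries, in counts and in CPM, while the antibiotic libraries overlapped both. Only antibiotic replicate 3 and transfer replicate 2 were above the limit. C4a had 3 to 12 counts and was above the limit in transfer replicate 2 alone, and its close copy makes that count uncertain. C8g had 1 to 11 counts and never exceeded the limit.

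The membrane attack genes C7, C8a, C8b and C9 lay just outside, each above the limit in 3 libraries. C2, a classical-pathway protease, was the 1 gene of the 15 above it in all 9. Fn1, which encodes the matrix and plasma protein fibronectin, had 1 to 5 counts.

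Of 6 neutrophil granule and surface genes, 3 were at background. Camp, an antimicrobial peptide of granules, had 1 to 10 counts and Trem1, an activating receptor, 1 to 4, all under the limit. Ltf, the granule protein lactoferrin, had 2, 1 and 8 counts in control, 6, 7 and 34 in antibiotic and 1, 10 and 6 in transfer libraries, with antibiotic replicate 3 alone above the limit. S100a8 and S100a9, calcium-binding proteins abundant in neutrophils, were above the limit in 8 and 6 libraries.

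Of 8 scavenger receptors and C-type lectins, 6 were at background, the largest share among the family lists with more than 4 panel genes. Some lists were drawn up or extended after the counts were seen, so this rank depends on how they were drawn. Marco, a macrophage receptor for bacteria, had 11, 14 and 3 counts in control, 3, 4 and 2 in antibiotic and 20, 6 and 9 in transfer libraries. Cd209g had 16, 10 and 5, then 4, 7 and 14, then 6, 6 and 4 counts. In both genes control replicate 1 was above the limit, joined by transfer replicate 1 for Marco and antibiotic replicate 3 for Cd209g.

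Clec4e, which senses mycobacterial glycolipid, had 1, 1 and 4 counts in control, 3, 2 and 15 in antibiotic and 1, 16 and 1 in transfer libraries, and was above the limit in the 2 libraries with the highest counts. Cd163, the haemoglobin scavenger receptor of macrophages, had 2 to 13 counts, and Clec4a4 1 to 5. Msr1, a scavenger receptor for modified lipoprotein, had 1, 5 and 3 counts in control, 1, 2 and 3 in antibiotic and 1, 2 and 1 in transfer libraries. None of these last 3 exceeded the limit. Cd36, a lipid receptor also made by enterocytes, exceeded it in all 9 libraries with 59 to 176 counts, and Clec5a did so in 5.

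Macrophage and dendritic cell markers outside this list were weak but present. Csf1r and Cx3cr1 were each above the limit in 5 libraries, and Itgax in all 9 with 15 to 140 counts. The summed count of the 4 markers, Cd163 included, was 45 to 210.

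Fc receptors and immunoglobulin-like receptors were split. Fcgr1, the high-affinity receptor for IgG, had 1 to 7 counts and Trem2, a lipid receptor of macrophages, 1 to 7. Fcgr2b, the inhibitory IgG receptor of B cells and myeloid cells, had 8, 10 and 7 counts in control, 4, 5 and 8 in antibiotic and 9, 9 and 5 in transfer libraries. It was above the limit in control replicate 1 only, although the B cell marker Ms4a1 had 153 to 2207 counts in the same libraries.

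Lilra6, an immunoglobulin-like receptor gene with close relatives that make its count uncertain, had 8, 7 and 6 counts in control, 2, 1 and 4 in antibiotic and 5, 13 and 6 in transfer libraries. Its control libraries lay above its antibiotic libraries, and control replicate 1 and transfer replicate 2 exceeded their limits. Lilra5 had 1 to 6 counts. The signalling chain Fcer1g and the receptor Fcgr3 exceeded the limit in all 9 libraries. Rag1, which cuts antigen receptor genes in developing lymphocytes, had 1 to 12 counts and did not exceed it, while Rag2 did so in 3 libraries.

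Adhesion genes at background came from endothelium, nerve and platelets, with a few that are known from leukocytes and epithelium. Cdh5, the cadherin of endothelial junctions, had 3 to 10 counts and never exceeded the limit. Sele, the endothelial selectin, did so only in transfer replicate 2, at 14 counts. Pecam1, which leukocytes and platelets share with endothelium, was above it in all 9 libraries with 75 to 492 counts.

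Icam5, a neuronal adhesion molecule, had 7, 5 and 12 counts in control, 1, 1 and 7 in antibiotic and 7, 22 and 9 in transfer libraries, with control replicate 3 and transfer replicate 2 above the limit. Ncam1, the neural adhesion molecule also found on natural killer cells in human, had 1 to 6 counts. Itga2b, the platelet integrin chain, had 1, 13 and 9 counts in control, 10, 2 and 16 in antibiotic and 1, 7 and 1 in transfer libraries, with control replicate 3 and antibiotic replicate 3 above the limit. Itga5, the fibronectin receptor chain, had 8, 14 and 9 counts in control, 5, 4 and 7 in antibiotic and 4, 6 and 2 in transfer libraries. In counts and in CPM every control library of Itga5 lay above every antibiotic and transfer library, while in the deposited signal transfer replicate 1 (7.29) lay above control replicate 3 (7.01). Control replicates 1 and 3 exceeded their limits.

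Cd44, Cd99 and Ceacam1 never exceeded the limit, while the other 8 of the 11 adhesion glycoproteins and tetraspanins were above it in 8 or 9 libraries. Cd44, the hyaluronan receptor of activated lymphocytes and crypt cells, had 5, 3 and 4 counts in control, 6, 6 and 6 in antibiotic and 4, 3 and 9 in transfer libraries. Ceacam1, an adhesion molecule known from intestinal epithelium, had 6, 4 and 6, then 4, 4 and 6, then 3, 4 and 5 counts. Cd99 had 3 to 8 counts. Each value rests on the 1 target site that the panel's probe binds.

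Among genes of tissue remodelling, Plaur, the urokinase receptor, had 7, 15 and 14 counts in control, 9, 3 and 5 in antibiotic and 4, 13 and 4 in transfer libraries. Control replicate 3 and transfer replicate 2 were above the limit. Tnfaip6, a hyaluronan-binding protein induced by tumour necrosis factor, had 1, 3 and 2 counts in control, 1, 2 and 4 in antibiotic and 2, 3 and 1 in transfer libraries, all under the limit.

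Several regulators of immune responses were at background inside cells. Foxp3 and Hlx were the 2 at background from a list of 14 immediate-early and lineage transcription factors. Batf, Nfil3, Lef1, Tcf7, Prdm1 and Runx1 of that list exceeded the limit in all 9 libraries. The rest of the list did so in 3 (Maf) to 8 libraries (Pparg), with Gata3 in 7. Foxp3, the lineage factor of regulatory T cells, had 4, 3 and 6 counts in control, 1, 4 and 6 in antibiotic and 3, 16 and 5 in transfer libraries. Only transfer replicate 2 exceeded the limit. Nfatc1, a calcium-driven transcription factor, had 1, 1 and 1 counts in control, 3, 1 and 2 in antibiotic and 1, 6 and 1 in transfer libraries, whereas Nfatc3 had 452 to 1144 and exceeded the limit in all 9 libraries.

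Hlx, a homeobox factor, had 3, 6 and 11 counts in control, 2, 3 and 6 in antibiotic and 7, 33 and 4 in transfer libraries. Socs1, a feedback inhibitor of Janus kinases, had 1, 1 and 18 counts in control, 5, 1 and 8 in antibiotic and 1, 20 and 1 in transfer libraries. For both genes control replicate 3 and transfer replicate 2 were above the limit. Nod2, the cytosolic sensor of bacterial muramyl dipeptide known from Paneth cells and myeloid cells, had 1, 1 and 6, then 5, 1 and 4, then 1, 2 and 1 counts. It never exceeded the limit, while Card9, an adaptor of innate receptors, did so in 7 libraries and Tmem173, the STING adaptor, in all 9.

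The remaining genes belong to no immune family in common. H2-Q10, a secreted class I molecule known from liver, had 6, 7 and 5 counts in control, 3, 4 and 12 in antibiotic and 7, 36 and 9 in transfer libraries, with transfer replicate 2 alone above the limit. Cd1d1, Mr1 and Hfe, listed with it as nonclassical class I genes, exceeded the limit in all 9 libraries. Slamf1, a receptor of activated lymphocytes, was above the limit only in antibiotic replicate 3, at 15 counts. Slamf7, Cd48 and Sh2d1a of the same list exceeded it in all 9. Mbp, the myelin protein, had 2 to 9 counts and Frmpd4, a synaptic scaffold, 1 to 12, with control replicate 1 alone above the limit for each.

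Cd3eap, which despite its name encodes an RNA polymerase I subunit, had 10, 12 and 19 counts in control, 4, 3 and 3 in antibiotic and 10, 5 and 9 in transfer libraries. Its control libraries lay above the antibiotic libraries without overlap, and control replicates 1 and 3 exceeded their limits.

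The 10 genes that reached furthest over a limit show where the high counts sat. Transfer replicate 2 gave the top value for C1s, H2-Q10, Hlx, Ifna2 and Cmklr1, at 2.5 to 4.13 times the limit. Antibiotic replicate 3 gave it for Ltf and Ccl24, control replicate 3 for Pdgfb and Cd3eap, and antibiotic replicate 1 for Il28a. C1s, Ccl24, Clec4e and Cmklr1 exceeded the limit in both transfer replicate 2 and antibiotic replicate 3 and nowhere else. In 15 of all 91 genes some count was at least 2 times the limit, and 10 of these had their top value in these 2 libraries. Without them, the rule applied to the other 7 libraries gave 135 genes in place of 91, the 91 among them, since leaving libraries out can only add genes.

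**Figure D4:**
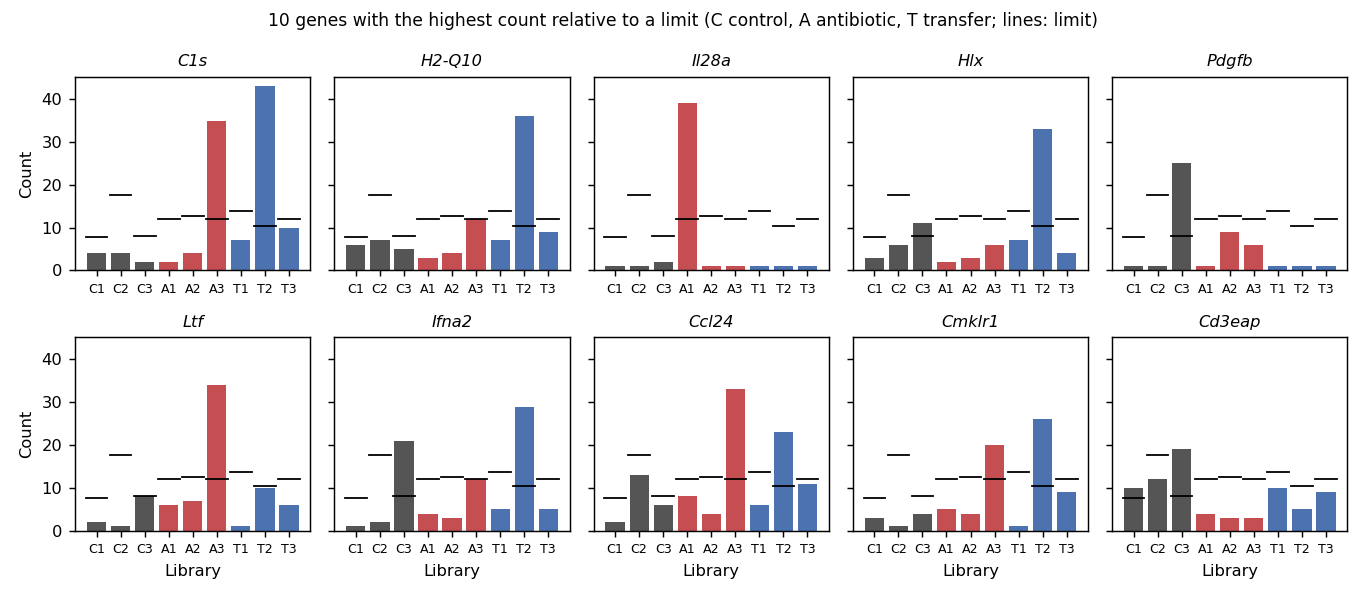
Counts (vertical axis) in the 9 libraries (horizontal axis, C control, A antibiotic, T transfer, with replicate number) for the 10 genes with the highest count relative to a limit, with each library's limit as a short line. High counts stood in 1 or 2 libraries of a group, as for C1s with 35 counts in antibiotic replicate 3 and 43 in transfer replicate 2.

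Whether the groups differed in any of the 91 genes was tested with edgeR's quasi-likelihood test on all endogenous and housekeeping genes, with no filter on low counts and Benjamini-Hochberg adjustment over all of them. The rule did not use the group labels, but it used these same counts and kept only low genes. A gene above the limit in all 3 libraries of a group could not enter the set. Calls among the 91 were thus limited by the rule, and 0 calls do not show that the groups were alike. For antibiotic against control 0 of the 91 passed at an adjusted p under 0.05, as did 0% of the panel. DESeq2 called 51 panel genes in this comparison and edgeR without control replicate 1 called 19, with 0 of the 91 among them in either case. DESeq2 gave an adjusted p for only 398 genes and withholds it from genes with low mean counts. Its 0 of the 91 is therefore not a separate negative result. At an unadjusted p under 0.05 edgeR gave 9 of the 91 (4 higher and 5 lower), against 19.8% of the panel.

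For transfer against antibiotic, again 0 of the 91 and 0% of the panel passed. At an unadjusted p under 0.05 there were 12 of the 91 (5 higher and 7 lower), against 4.1% of the panel, so these genes made up 12 of the panel's 23. For transfer against control 0 of the 91 and 0% of the panel passed, where DESeq2 called 27 panel genes and 0 of the 91. DESeq2 gave an adjusted p for only 322 genes here, so the same limit applies. With edgeR there were 3 of the 91 at an unadjusted p under 0.05 (1 higher and 2 lower), against 19.4% of the panel. The antibiotic libraries serve in the first comparison and again in the second, so the lists share their counts.

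Of the genes described, those with an unadjusted p under 0.05 had these adjusted values by edgeR. For antibiotic against control Cd3eap and Il28a had an adjusted p of 0.147, Lilra6 0.164, Tslp 0.177, and Csf3r and Ltf 0.185. For transfer against antibiotic Ccr3, Csf3r, Fcgr1, Icam5, Il28a, Lilra6 and Tslp had 0.867, and Cxcl15, Itga2b and Ltf 0.997. For transfer against control Itga5 had 0.234, C1s 0.235 and Pdgfb 0.243. No fold is given for any of them, since both groups of each comparison lay largely under the limit.

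As a whole the 91 genes were centred near 0, with genes above the limit throughout a group left out by the rule. Their median log2 fold change was 0.03 for antibiotic against control, -0.02 for transfer against antibiotic and -0.03 for transfer against control, where the medians of all genes tested were 0.03, -0.02 and 0.03. The median standard error of a log2 fold change was 0.68 for these genes and 0.50 for the other panel genes in the first comparison. Spike-in scaling moved the median of all genes to -1.89, 2.03 and 0.17 in the 3 comparisons and that of the 91 genes to -1.82, 2.03 and 0.31, and under it too 0 of the 91 passed.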

How the data were processed

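The authors deposited raw counts, whole numbers for every probe of a library, with probe classes per the file headers. RNA was extracted with TRIzol and cleaned on RNeasy columns, per the labels' protocols. Counting software is not given in the sources used here. A further deposited table held a signal for the endogenous genes, found from the values to equal the counts times 1 factor per library, namely 7047 over the mean housekeeping count (factor 0.734 to 1.82).

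The background limit was the mean plus 2 SD of the 8 negative probes of a library. Genes and family lists were chosen with earlier results of these data known, and 8 lists were added and a few extended after the counts were seen. Named genes were those outside families with roles of their own. Counts in every library were given for genes above the limit in 2 libraries, the 10 with the highest ratio to a limit, those with the lowest sums among the genes described, and up to 3 per family, others by range.

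Tests used edgeR 4.0.16 in R 4.3.3 on counts of all endogenous and housekeeping genes, in 1 fit of 9 libraries, with TMM factors (0.837 to 1.1) from 470 genes above the limit in at least 3 libraries or used as housekeeping genes. The common dispersion was 0.176. The closest 2 libraries of a group still differed beyond sampling noise (chi-square over its degrees of freedom 6.5), and all 9 were kept as separate. Alternatives were DESeq2 1.42.0, limma 3.58.1 (voom, and log2 of the deposited signal plus 1), other scalings, filters and limits, background subtraction, a replicate block, and leaving out libraries. RefSeq symbols were matched for 537 endogenous genes, 89 of the 91 among them. Counts limit precision through counting error, and no interval was computed.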

Additional observations from a re-analysis of the deposited data

How the results depend on the processing

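The number of genes at background was 91, and it was 46 when no library was allowed above the limit. Otherwise it was 63 with the limit at 1 SD, 114 at 3 SD, 93 with the highest negative probe as limit, 68 and 117 with at most 1 and at most 3 libraries, 108 with the common limit, and 91 to 110 when a library was left out. Of the 62 genes described, 28 stayed in the set with no library allowed, 43 at 1 SD and 57 with the highest negative probe. The count of the 91 genes called between groups was 0 in all 48 combinations of comparison and alternative run, with 0 to 39 at an unadjusted p under 0.05, the top under spike-in scaling for transfer against antibiotic. Over the whole panel, where edgeR called 0 in each comparison, DESeq2 called 51 genes for antibiotic against control and 27 for transfer against control, upper-quartile scaling 5 for antibiotic against control, and edgeR without control replicate 1 or control replicate 3 called 19 and 8 for antibiotic against control and 1 each for transfer against control. DESeq2 gave an adjusted p for 398 genes in the first of these comparisons and 322 in the last. Genes without one were not counted as called. DESeq2 withholds it from genes with low mean counts, so its 0 of the 91 there is not a separate negative result. With the replicate number as a block, 0 of the 91 were called in each comparison. Same-numbered libraries of different groups correlated between -0.475 and 0.321 in their deviations from the group means, so the numbers were not taken as pairs. The low limits of control replicates 1 and 3 and the high limit of control replicate 2 rest on 8 probes each, which limits any statement about a gene near 10 counts.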

Other observations

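In the authors' deposited signal table the genes at background carry the scaling factor of their library. Ccr8 and Masp2, with 1 count in all 9 libraries, have a signal of 0.734 in transfer replicate 2 and 1.82 in transfer replicate 1. Their group means are 0.928 ± 0.274 in control, 1.24 ± 0.421 in antibiotic and 1.16 ± 0.579 in transfer libraries (SD, n = 3), with no difference in count. On the same scale the background limit runs from 6.23 in control replicate 3 to 25.1 in transfer replicate 1. Cd44, at 4 ± 1 counts in control and 6 ± 0 in antibiotic libraries, has a signal of 3.87 ± 2.07 and 7.44 ± 2.53 (SD, n = 3), under the limit in each library.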
